A study of Schizosaccharomyces pombe with 2 samples.

Results

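The centromeres of the 3 chromosomes of the fission yeast Schizosaccharomyces pombe, which is haploid, were described on 2 tiling arrays. Their array probes were chosen by the start position in the probe name, on the numbering of the array, inside the intervals chr1:3740000-3800000, chr2:1590000-1650000 and chr3:1060000-1145000. These 3 regions held 493 of the 41551 probes that were not controls, with 192 in centromere I, 135 in centromere II and 166 in centromere III. Each array carried Cy5-labelled genomic DNA of a sap1-1 revertant (genotype sap1-1, background 972h) and Cy3-labelled genomic DNA of wild type on the same background, both cut with the restriction enzymes AluI and RsaI. Sap1, the product of sap1, binds DNA, is essential and blocks replication forks at certain sites; in a revertant, a phenotype of the mutant is gone. The 2 arrays are replicates 1 and 2. Whether the revertants are separate isolates, and whether 1 preparation of wild-type DNA served both arrays, is not in the labels. Since no array had the dyes the other way round, strain differences and the dye bias of single probes cannot be told apart.

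A fission yeast centromere is a stretch of DNA with few genes that holds the kinetochore, the protein structure that attaches a chromosome to the spindle. Its central core carries the centromeric histone variant Cnp1 and is flanked by inverted innermost repeats and then by outer repeats made of dg and dh elements. The outer repeats are packed in heterochromatin, which depends on RNA interference and on methylation of histone H3, and clusters of tRNA genes act as boundaries. Because the outer repeats are alike between centromeres, DNA of one copy can hybridize to probes of another.

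To show this structure in letters, 3 stretches of 120 bases were read from the ASM294v3 reference (RefSeq), plus strand. Which build numbers the probes is not stated in the sources used here, and these places are those of the reference, not of probes. The outer stretch is the middle one, in order of position, of the 574 with the most copies in the gene-free stretches described next. It occurred 11 times, 2 on chromosome I, 2 on II and 7 on III. The stretch of core I was also found once in centromere III, and that of core II was found nowhere else. Capitals mark the AluI site (AGCT, the same on both strands), which 36.9% of all 120-base stretches of the reference held.
outer repeat, ASM294v3 chrI:3761340-3761459: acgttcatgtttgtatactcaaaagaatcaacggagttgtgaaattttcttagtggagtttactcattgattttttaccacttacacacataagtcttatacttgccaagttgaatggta
core shared by I and III, ASM294v3 chrI:3771054-3771173: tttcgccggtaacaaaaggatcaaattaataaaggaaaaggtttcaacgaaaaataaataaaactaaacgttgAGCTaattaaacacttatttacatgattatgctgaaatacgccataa
core of II, ASM294v3 chrII:1624149-1624268: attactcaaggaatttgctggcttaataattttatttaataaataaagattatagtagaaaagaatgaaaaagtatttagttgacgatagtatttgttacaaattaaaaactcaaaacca

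In the reference, the longest gene-free stretch of chromosome I lay at chrI:3751730-3790923, between the protein-coding genes per1 and emc5, and held 7 tRNA genes. That of chromosome II lay at chrII:1596745-1648231, between rpb1 and yox1, and held 27 tRNA genes. That of chromosome III lay at chrIII:1064444-1142615, between chk1, a checkpoint kinase gene, and ppc1, and held 21 tRNA genes. Together they held 55 of the 171 nuclear tRNA genes. Of the 60-base words between the innermost tRNA genes of centromere I, 56.7% occurred in the same part of centromere III and 0 in that of centromere II. Probe ratios were compared with base composition in the 200 kb on each side, at offsets of up to 6000 bp either way. The best offsets between the array and the reference were -1640 to 4420 bp, with weak correlations (r = -0.23 to -0.17). Left and right of centromere I they were -780 and 4420 bp. A larger offset could not be found by this search, so the match between array and reference positions is not settled. Reference values given below for array windows are those of the reference window with the same numbers.

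Probes were missing from the centromeres, and most of all from centromere III. Probes elsewhere stood 300 bp apart, with 99.1% of the grid positions filled outside the 3 intervals. In the intervals, 96.0% of the positions were filled on chromosome I, 67.2% on II and 58.7% on III. Distances of at least 1000 bp between neighbouring probe starts numbered 1 on chromosome I, 6 on II and 12 on III, against 37 on the rest of the 3 chromosomes. The only one of centromere I ran from 3779400 to 3781200. The longest of centromere II were 5.4 kb (1635000 to 1640400), 4.2 kb (1610700 to 1614900) and 2.4 kb (1642500 to 1644900). Those of centromere III were 4.8 kb (1125600 to 1130400), 3.3 kb (1122300 to 1125600) and 3 kb (1130400 to 1133400), so that the right side of centromere III was read by few probes.

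The names of the probes carry a letter f, a letter m or neither, which the sources used here do not explain. The centromeres held 125 probes with m, which were 28.7% of all m probes of the 3 chromosomes, 161 with f (15.0%) and 207 with no letter (0.521%). The m probes lay in the outer parts of the intervals and the f probes mostly in the middle and at the edges of the outer parts. Centromere III had 64 m probes, centromere I 38 and centromere II 23.

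Centromere probes were bright in wild type. Wild-type brightness is the log2 Cy3 processed signal of a probe minus the array median. Its median was 0.83 in replicate 1 and 0.82 in replicate 2 in centromere I, 0.89 and 0.88 in centromere II, and 1.25 and 1.21 in centromere III, against -0.02 on both arrays for the rest of the 3 chromosomes. In linear terms the medians were 1.77, 1.85 and 2.35 times the array median. The order of centromeres I, II and III was the same on both arrays, but it rests on saturated spots. Without them the means of the 2 arrays were 0.48 ± 0.03 in I, 0.75 ± 0.02 in II and 0.32 ± 0.02 in III (SD, n = 2), and centromere III had the lowest value. Over the 41 windows of 5 kb in the intervals, brightness was higher where more of the reference window was repeated (Spearman rho 0.67, Pearson r 0.57, a description, since the windows share repeats and arrays). A median of 94.0% of the 60-base words of these reference windows occurred more than once, against 0% over all 2512 reference windows. The number of AluI and RsaI sites did not set the centromeres apart, with a median of 32 per 5 kb in them and 32 over all reference windows.

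**Figure D1:**
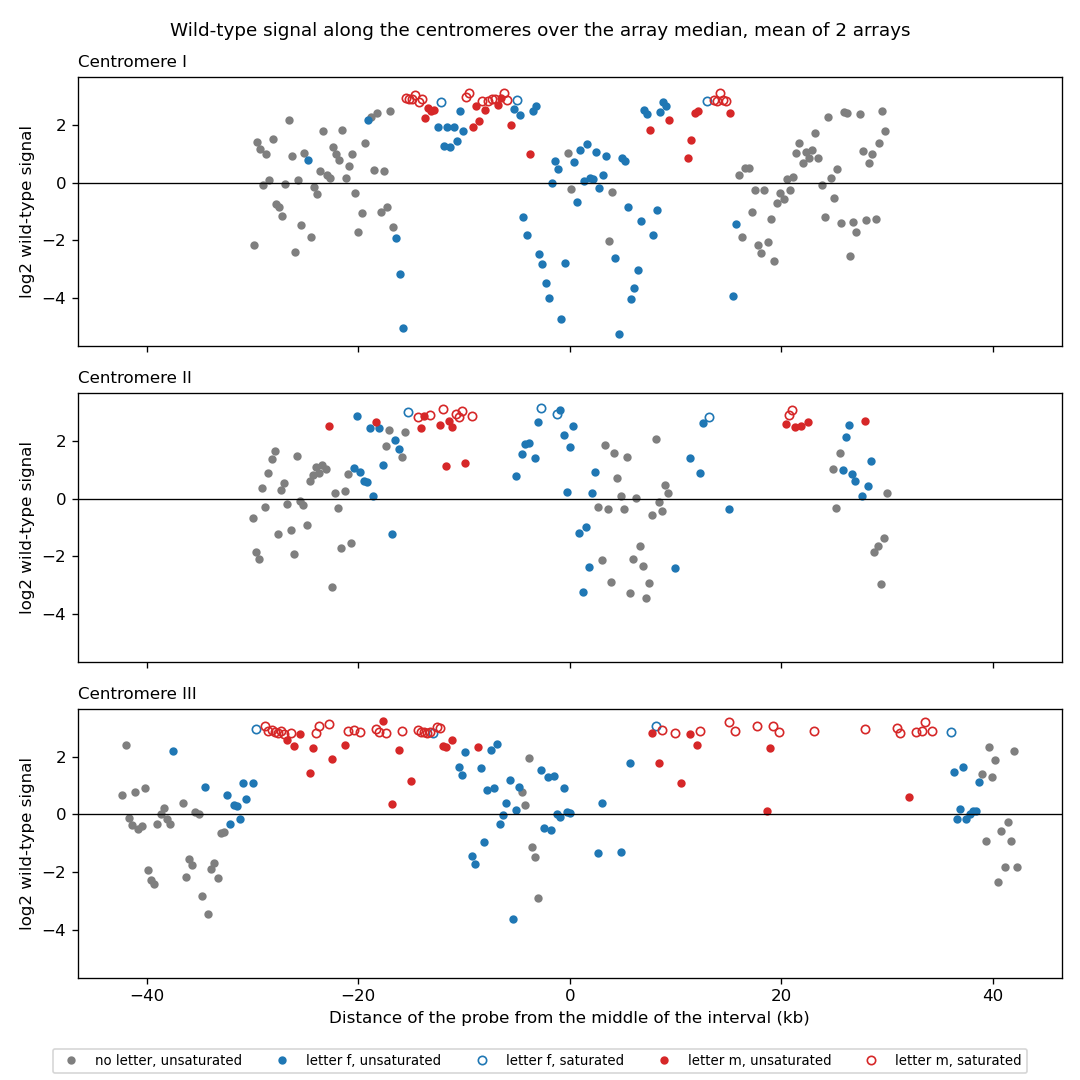
Wild-type signal of the 493 probes along each centromere: log2 Cy3 processed signal over the array median, mean of 2 arrays, against the distance from the middle of the interval in kb; colours give the letter in the probe name and open circles are spots saturated on either array. Most open circles are m probes near the scanner ceiling, at about the level of the m median of 2.84. Probes over the middle of each centromere have a median near the array median. In centromere II, however, the window 1615001-1620000 is at 4.17 times the array median.

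The brightest probes of wild type were mostly m probes. Their median brightness read 2.84 in replicate 1 and 2.83 in replicate 2, which is a lower bound, since 55.2% of them were saturated. The 56 unsaturated m probes had 2.39 and 2.42. The f probes had 0.85 on both arrays and the probes without a letter -0.08 and -0.07. On the rest of the 3 chromosomes, m probes had 2.34 and 2.29, f probes 1.38 on both arrays and probes without a letter -0.06 on both. The f probes there had 0.88 and 0.87 when 50 kb at each chromosome end was left out. By letter, only the m probes of the centromeres were thus brighter than those elsewhere. By the values read, the brightest window of centromere I was 3780001-3785000, at no less than 7.14 times the array median with 6 of 10 probes saturated. In centromere II it was 1605001-1610000 (7.06 times or more, 6 of 12 saturated) and in centromere III 1115001-1120000 (8.32 times or more, both of its probes saturated). With so many saturated spots, their order among other bright windows is not settled, such as 3760001-3765000, read at 7.11 times with 8 of 16 saturated. The brightest unsaturated probe of centromere I started at 3763500 and had wild-type signals of 8910 and 9042. That of centromere II started at 1619100 (9869 and 9875) and that of centromere III at 1084800 (11001 and 10966).

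Saturation was common. A spot was set apart when it was saturated in either channel on either array. This held for 80 of the 493 probes (16.2%), against 0.675% on the rest of the 3 chromosomes. By letter, it held for 55.2% of m probes in the centromeres and 27.7% elsewhere. For f probes it was 6.83% and 10.4%, or 2.51% elsewhere without 50 kb at each chromosome end. For probes without a letter it was 0% and 0.235%. Of the 80 in the centromeres, 22 lay in centromere I, 13 in II and 45 in III, and 69 were m probes and 11 f probes. The Cy3 channel was saturated on both arrays at 76 of them and on 1 array at the other 4. The Cy5 channel was saturated on both arrays at 3 f probes, starting at 3783000 on chromosome I and at 1089600 and 1110600 on chromosome III. A spot at the ceiling in Cy3 only has a wild-type signal that is at least the value read, so that its ratio of revertant to wild type is an upper bound. All 493 probes were well above background on both arrays, and none had an outlier flag.

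Taken whole, the 3 centromeres differed little from the array median. The ratio is the log2 of the Cy5 over the Cy3 processed signal minus the array median, so that a positive value means more signal in the revertant. Over unsaturated probes its median was 0.13 in replicate 1 and 0.09 in replicate 2 in centromere I (170 probes), with a mean of 0.11 ± 0.03 (SD, n = 2). In centromere II it was 0.04 and -0.03 (122 probes, mean 0.01 ± 0.05), and in centromere III 0.05 and 0.01 (121 probes, mean 0.03 ± 0.03). The 2 arrays lay on the same side of 0 in centromeres I and III and on opposite sides in centromere II. No test was made, since with 2 arrays the smallest p of an exact sign permutation is 0.5. Among 202 tiles of 60 kb elsewhere on the chromosomes, whose medians ran between -0.18 and 0.96, 15 were at or above centromere I, 66 at or above centromere II and 47 at or above centromere III. The small values for whole centromeres hide a wide spread between their probes, with an SD over unsaturated probes of 0.64 in I, 0.74 in II and 0.79 in III, against 0.66 on the rest of the chromosomes. Single unsaturated probes ranged from -2.60 to 1.11 in centromere I, from -2.34 to 1.29 in II and from -2.44 to 1.10 in III in replicate 1. These probe values were alike on both arrays (r = 0.978 to 0.983 across the unsaturated probes of a centromere, which share sequence and dye effects).

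**Figure D2:**
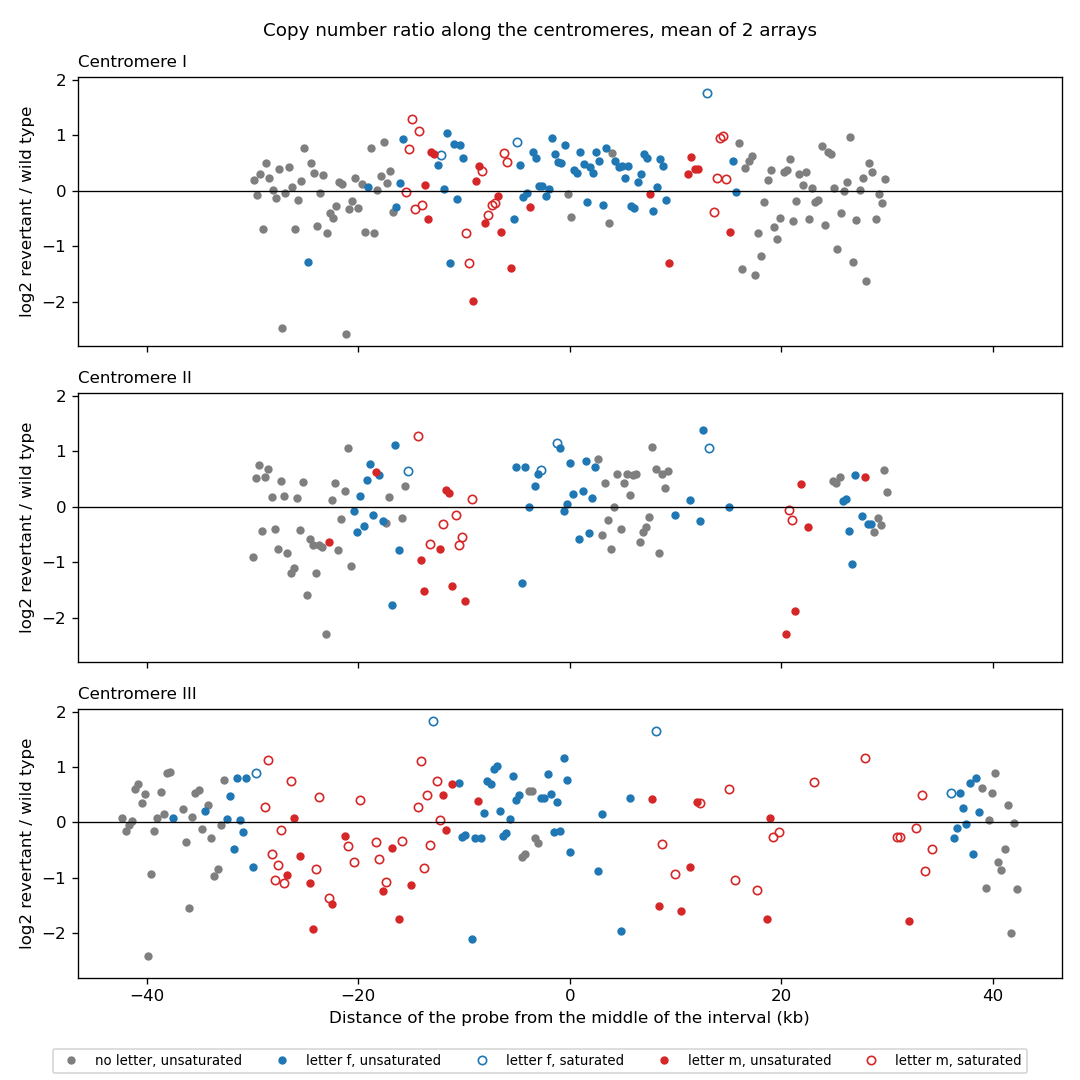
Ratio of revertant to wild type of the 493 probes along each centromere: log2 ratio centred on the array median, mean of 2 arrays, against the distance from the middle of the interval in kb; colours give the letter in the probe name and open circles are saturated spots. Single red m probes reach below -1 on both sides of each centromere, while the blue f probes in the middle lie mostly above 0.

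Over the 3 centromeres together, m probes were lower in the revertant than the same kind of probe elsewhere. The 56 unsaturated m probes had a median ratio of -0.49 on each array, and both arrays put 35 of the 56 below 0. The 225 unsaturated m probes on the rest of the 3 chromosomes had 0.39 in replicate 1 and 0.34 in replicate 2, and both arrays put 53 of the 225 below 0. The centromere median was thus lower than that of the m probes elsewhere by 0.88 in replicate 1 and 0.83 in replicate 2, a mean difference of -0.86 ± 0.03 (SD, n = 2). No test was made of this, since the groups by letter were chosen after seeing the values. The probes without a letter differed by 0.04 ± 0.03 between the centromeres and the rest. The difference of the f probes depended on what they were set against. It was -0.01 ± 0.07 against all f probes elsewhere, and 0.21 ± 0.07 when 50 kb at each chromosome end was left out, where the 467 remaining f probes had 0.03 and -0.02. Against all f probes elsewhere, it was 0.17 ± 0.04 in centromere I and -0.16 ± 0.04 in centromere II. Brightness moved with this contrast: unsaturated m probes had a median brightness of 2.40 in the centromeres and 1.94 elsewhere. The brightest 10% of the unsaturated spots outside the centromeres had median ratios of 0.11 and 0.18, and the dimmest 10% had -0.26 and -0.24. The part of brightness in the result was not tested. Under loess, which removes a trend with brightness within an array, the m median of the centromeres was -0.76. The m probes elsewhere were not recomputed under loess, so this value does not bear on the difference between the groups.

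The saturated m probes give upper bounds, which can place a ratio below 0 but cannot be set against each other. At 66 m probes only the Cy3 channel was at the ceiling on both arrays, and 39 of these bounds lay below 0 on both arrays. These were 7 of 18 in centromere I, 7 of 9 in II and 25 of 39 in III. Of the 76 such m probes elsewhere on the 3 chromosomes, 1 bound was below 0 on both arrays, and the others leave the sign of the ratio unknown. The 3 spots saturated in both channels had ratios of 1.52 to 1.87, which bound nothing.

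By the positions in their names, the m probes of centromere I were less low than those of the other centromeres. The 19 unsaturated m probes of centromere I had medians of -0.05 in replicate 1 and -0.02 in replicate 2. The 14 of centromere II had -0.62 and -0.79, and the 23 of centromere III had -0.67 and -0.95. On each side of the middle of centromeres II and III the median was below 0 on both arrays. In II it was -0.63 and -0.93 left (9 probes) and -0.26 and -0.48 right (5 probes). In III it was -0.52 and -0.68 left (15 probes) and -1.02 and -1.21 right (8 probes). In centromere I the left side had -0.15 and -0.22 (12 probes) and the right side 0.39 and 0.23 (7 probes), so that its 2 sides lay on opposite sides of 0. The outer repeats are alike between centromeres, so an m probe may read DNA of other copies. Whether these differences lie in the named centromere or side cannot be told from these values. The f probes of centromere I were the highest, at 0.38 and 0.40, against 0.10 and 0.01 in II and 0.24 and 0.13 in III. Probes without a letter had means of 0.02 ± 0.03 in I, 0.04 ± 0.07 in II and 0.02 ± 0.01 in III, but in centromere II the 2 sides were opposite. The 35 on its left had -0.31 in replicate 1 and -0.28 in replicate 2, and the 31 on its right had 0.36 and 0.25. In centromere III the 35 on the left had 0.08 and 0.02 and the 12 on the right -0.36 and -0.12, while both sides of centromere I were within 0.05 of 0 on both arrays.

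**Figure D3:**
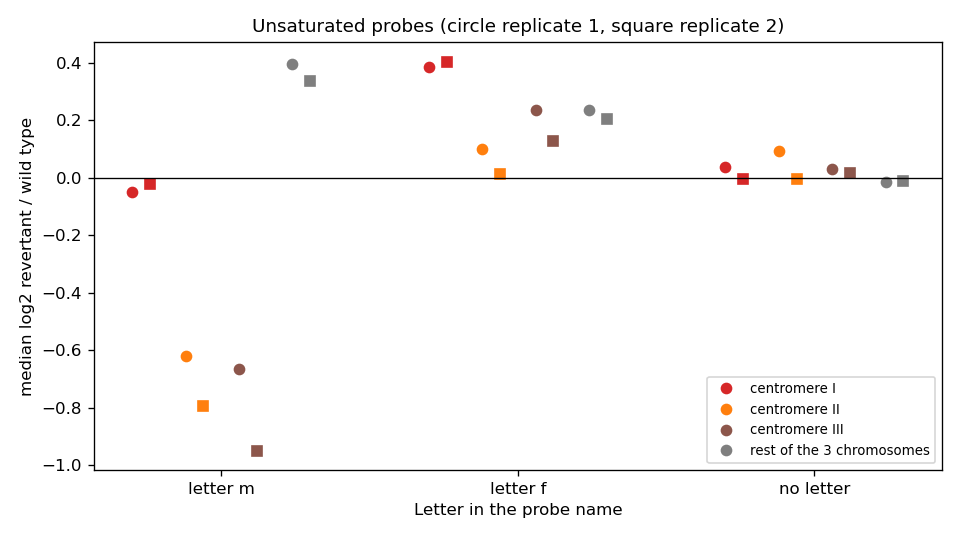
Median log2 ratio of revertant to wild type of unsaturated probes by the letter in the probe name, in each centromere and on the rest of the 3 chromosomes; circles are replicate 1 and squares replicate 2. The m probes of centromeres II and III lie below -0.6 on both arrays, those of centromere I near 0 and those elsewhere above 0.3.

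Along the centromeres, windows of 5 kb placed these values. Of the 41 windows in the intervals, 29 had the 5 unsaturated probes needed for a test, 11 of 12 in centromere I, 9 of 12 in II and 9 of 17 in III. limma, a linear model that moderates the variance, was fitted to 2486 windows of the 3 chromosomes with Benjamini-Hochberg adjustment. It called 12 centromere windows higher and 8 lower at an adjusted p under 0.05. Over all windows it called 25.7% higher and 31% lower, so that a call by itself sets no window apart. Windows whose ratio reached 0.25 either way on both arrays numbered 4 higher and 6 lower in the centromeres, against 6.8% higher and 9.73% lower over all windows. The 4 windows are 13.8% of the 29 and the 6 are 20.7%. The means of the 29 windows spread with an SD of 0.39, against 0.24 over all windows.

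The lowest window of each centromere lay over m probes. In centromere III the lowest tested window was 1075001-1080000, where the ratio was -0.86 in replicate 1 and -0.99 in replicate 2 (5 unsaturated probes; mean -0.93, SE 0.05, limma adjusted p 9.1e-09), and all 11 of its probes were m probes. It was the second lowest of the 2486 windows. In centromere II the lowest was 1605001-1610000, at -0.79 and -0.94 (6 unsaturated probes; adjusted p 1.9e-08 by limma), which ranked 4 of 2486. In centromere I it was 3760001-3765000, at -0.50 and -0.57 (8 unsaturated probes; adjusted p 6.2e-07 by limma), which ranked 32. Both arrays were below 0 in each of these. Of the 6 lowest windows of the 3 chromosomes, 3 were in centromeres II and III, and of the 25 lowest, 4 were in the centromeres. The lowest windows of III, II and I had wild-type signals of at least 6.99, 7.06 and 7.11 times the array median. Of their probes, 6 of 11, 6 of 12 and 8 of 16 were saturated. Windows with fewer than 5 unsaturated probes went both ways. In centromere III, 1080001-1085000 had -1.10 and -1.39 from 3 probes and 1085001-1090000 had -1.17 and -1.08 from 3 probes, but 1135001-1140000 had 0.12 and 0.05 from 4. In centromere I, 3780001-3785000, where 9 of 10 probes were m probes, had 0.46 and 0.33 from 4 unsaturated probes.

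The highest windows lay elsewhere, mostly over the middle. In centromere I the highest was 3755001-3760000, at 0.51 and 0.54 (adjusted p 6.3e-07 by limma), with 8 m and 9 f probes and a wild-type signal of 5.48 times the array median. It ranked 63 from the top and lay beside the lowest window of the same centromere. Under loess it was at 0.14, below 3770001-3775000 and 3765001-3770000, both at 0.39. In centromere II the highest was 1625001-1630000, at 0.48 and 0.25 (adjusted p 1.1e-04 by limma). In centromere III it was 1100001-1105000, at 0.45 and 0.42 (adjusted p 3.2e-06 by limma). The 7 windows that overlapped the reference interval between the innermost tRNA genes had means of 0.19 to 0.44, and all were above 0 on both arrays. Any overlap counted, so these windows also hold sequence outside that interval. In the reference the interval starts at 3768364 in centromere I, late in 3765001-3770000. In centromere II it starts at 1619257, late in 1615001-1620000. The reference GC content of the 7 windows was 27.9% to 30.7%, against a median of 32.8% in all centromere windows and 36.0% over all windows. In these centromere windows the ratio was higher where GC content was lower (rho -0.57, r = -0.42 over 29 windows; r = -0.18 over 2486). With a line on GC content taken out, the 7 windows had means of 0.02 to 0.28, with 1620001-1625000 of centromere II lowest. Under loess they had -0.01 to 0.51, and 1615001-1620000 of centromere II was the one below 0.

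The windows over the middle held 34 probes in centromere I, 42 in II and 26 in III, of which 29, 19 and 20 were f probes and 1 in all was an m probe. In replicates 1 and 2, their unsaturated probes had medians of 0.40 and 0.41 in centromere I, 0.35 and 0.15 in II, and 0.45 and 0.35 in III. Both arrays were above 0 in each centromere, and the arrays lay furthest apart in centromere II. Of the single unsaturated probes, 23 of 33 in I, 23 of 40 in II and 17 of 26 in III were above 0 on both arrays. On the rest of the 3 chromosomes, 504 of 815 unsaturated f probes were above 0 by the mean of the arrays, a less strict count. This was 234 of 467 without 50 kb at each chromosome end. Among unsaturated probes without a letter it was 19429 of 39431. Over all probes of the windows over the middle, median wild-type brightness was 0.09 ± 0.01 in I, 0.13 ± 0.03 in II and 0.23 ± 0.02 in III (SD, n = 2), near the array median. Single windows differed. The middle window 1615001-1620000 of centromere II was at 4.17 times the array median. Some outer windows were below it, such as 3785001-3790000 of centromere I at 0.489 times and 1635001-1640000 of II at 0.769 times from 1 probe. The dimmest probe of each centromere lay in the windows over the middle, with a brightness of -5.24 in I, -3.45 in II and -3.61 in III.

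**Figure D4:**
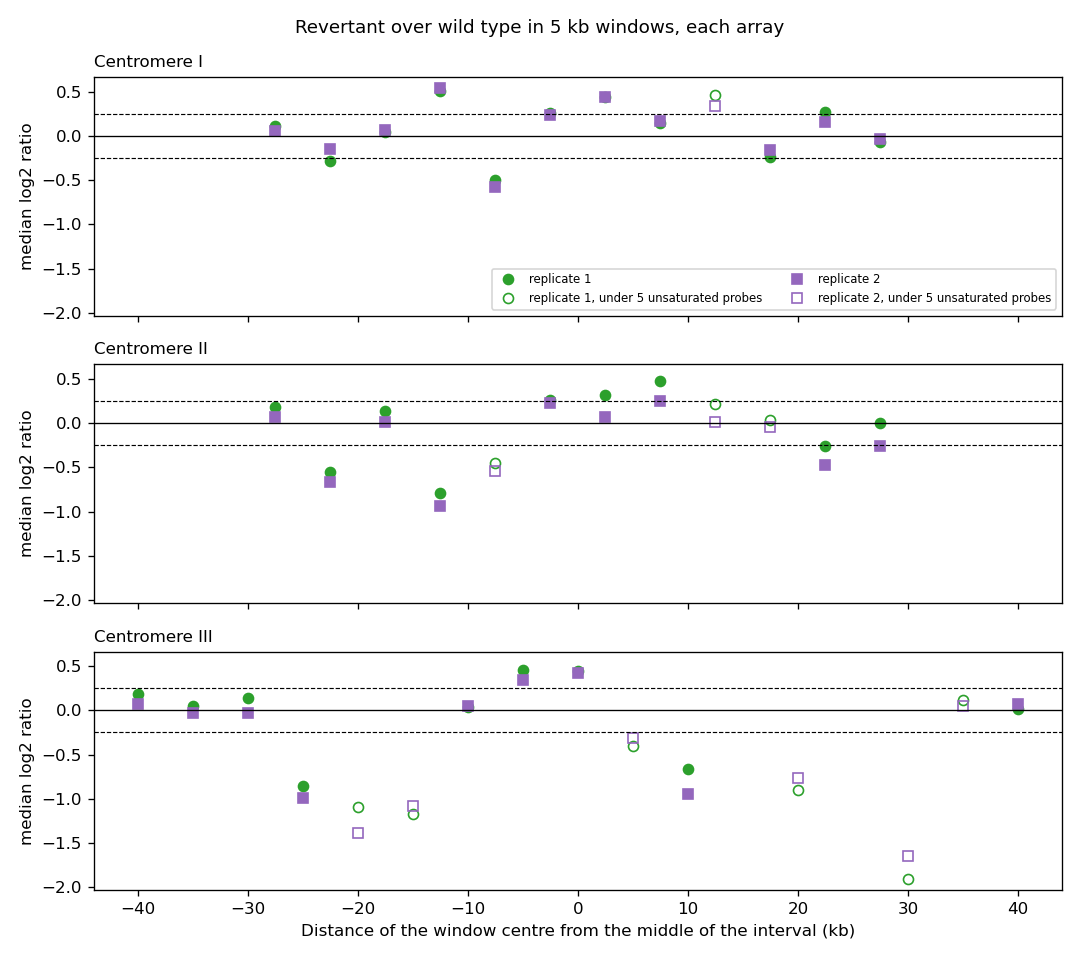
Median log2 ratio of revertant to wild type in 5 kb windows of each centromere against the distance from the middle of the interval in kb; circles are replicate 1, squares replicate 2, open symbols windows with under 5 unsaturated probes, and dashed lines 0.25 in size. The middle of each centromere lies above 0. The left flank of centromere II and both flanks of III reach below -0.6 on both arrays. On the right of centromere II the lowest window is at -0.26 in replicate 1 and -0.48 in replicate 2.

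The first and last windows of the 3 intervals, where genes lie in the reference, were mostly close to the array median, but windows next to them were not always. The first window of centromere I (3740001-3745000) had 0.11 in replicate 1 and 0.05 in replicate 2, and the last (3795001-3800000) had -0.07 and -0.04. Next to them, 3745001-3750000 had -0.28 and -0.15, and 3790001-3795000 had 0.27 and 0.15. In centromere III the first window had 0.18 and 0.07 and the last 0.01 and 0.07. In centromere II the first had 0.18 and 0.06, but the next (1595001-1600000) had -0.55 and -0.66 with 17 unsaturated probes, of which 1 was an m probe. It was the lowest window made mainly of probes without a letter in the 3 intervals. The last window of centromere II (1645001-1650000) had 0.00 and -0.26. Replicate 1 was above replicate 2 at 238 of the 413 unsaturated probes, by a median of 0.02.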

How the data were processed

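DNA labelled as sap1-1 revertant (Cy5) and as wild type (Cy3) was measured on 2 two-colour arrays. Agilent Feature Extraction 10.10.1.1 read the authors' images, per the file headers. Its deposited processed signals are intensities after background subtraction and a linear dye normalization for each channel of each array, without lowess, per the file headers. The deposited log10 ratios equalled log10 of the processed Cy5 over Cy3 signal to within 4.2e-07 and served only as this check. The authors' deposited series table of log2 ratios equalled, to within 0.001, the running mean over 5 probes of the uncentred ratios in 100% of values, with column medians of 0.00 and -0.01. This settles its scale, centring and direction, and it was used as an alternative. Deposited flags mark saturated and outlier spots, per the file headers.

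Ratios were log2 of Cy5 over Cy3, minus the array median over 41551 probes (0.09 and 0.08 before centring). The median raw signals were 8318 and 8348 in Cy3 and 2350 and 2577 in Cy5; the number of arrays limits the precision. Saturated spots and outlier flags were left out of ratio medians and kept in brightness medians. For each 5 kb window of at least 5 probes, the medians of both arrays went into limma 3.58.1 (R 4.3.3) (test against 0 with an intercept fit, eBayes, Benjamini-Hochberg at 0.05); the p-values measure the spread between these 2 arrays only, and probe effects that both arrays share enter the calls. The step was also run on simulated windows with independent noise on each array. These held no probe effects shared by both arrays, so they do not test the calls in the real data. Python 3.11.15 with pandas 2.3.3 was used. Named windows were the highest, the lowest and the brightest of each centromere, with the 3 longest probe distances, the brightest unsaturated probe and flanking genes; the windows at the edges, over the core and with few probes, and the grouping by letter, were chosen after their values were seen. The members and lists were chosen with earlier results of these data known. The sources used here name no genome build for the probes, and no position was converted; the sequences of the probes were not used here. Alternatives covered saturated spots, outlier flags, loess, centring, normexp (offset 50), the authors' table, means, interval ends, window size, a minimum of 3 probes, GC content and each replicate left out.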

Additional observations from a re-analysis of the deposited data

How the results depend on the processing

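Of 128 recomputed values, 76 stayed within the spread between the arrays (counts: within 1.5 times) and 52 did not. Some of the 76 could not have moved. With 2 arrays, a ratio or brightness from 1 of them always lies within this spread. No centromere probe had an outlier flag, so keeping flagged spots changed nothing. The 76 are thus no measure of stability. For the ratios of centromeres I, II and III in that order, leaving out the centring gave 0.19, 0.0879 and 0.11, the mean over probes gave 0.00422, -0.10 and -0.12, and intervals trimmed by 10 kb at each end gave 0.21, 0.15 and -0.0559. The reference's gene-free stretch gave 0.26 for I and 0.0884 for II, normexp gave 0.17 for I and -0.0125 for III, the authors' table gave 0.0885 for II and 0.15 for III, and adjustment for GC content gave -0.068 for II and -0.028 for III. Keeping saturated spots gave -0.0108 for III. Signs of centromeres II and III therefore depend on the processing, and that of centromere I stayed at or above 0 under the alternatives run. Without 1 replicate the ratio was 0.09 to 0.13 in I, -0.03 to 0.04 in II and 0.01 to 0.05 in III.

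The m median stayed below 0 under the alternatives run: -0.27 with saturated spots, -0.76 with loess, -0.41 without centring, -0.58 with normexp, -0.21 in the authors' table (a running mean over neighbours), -0.52 as a mean, -0.55 adjusted for GC content, -0.27 without the 3 lowest windows, and -0.49 with 1 replicate left out. Set against the rest of the chromosomes without 50 kb ends, the f probes of the centromeres were 0.21 higher. The f median was 0.11 adjusted for GC content, and 0.15 to 0.28 with 1 replicate left out. The probes without a letter had 0.11 without centring, -0.10 as a mean, -0.00461 adjusted for GC content, and 0.01 to 0.04 with 1 replicate left out.

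Wild-type brightness of I, II and III was 0.73, 0.90 and 1.18 from the median raw signal minus background (the files hold no mean signal), 0.48, 0.75 and 0.32 without saturated spots, 0.53, 0.70 and 1.06 as a mean, and 1.09, 1.40 and 2.28 after trimming. With 1 replicate left out it was 0.82 to 0.83, 0.88 to 0.89 and 1.21 to 1.25.

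Of limma's calls, 10 kb windows gave 7 higher and 5 lower of 18 tested. These were 38.9% and 27.8%, against 19.9% and 27.3% over all 10 kb windows. Means gave 13 lower of 29 (44.8%), against 63.9% over all windows. Of windows of at least 0.25, 10 kb windows gave 2 higher and 3 lower of 18 tested. These were 11.1% and 16.7%, against 4.32% and 3.92% over all 10 kb windows. No centring gave 7 higher of 29 (24.1%), against 13.2% over all windows. Saturated spots kept gave 7 higher of 34 tested (20.6%), against 7.49% over all windows. Lower windows numbered 3 of 29 (10.3%) with the authors' table, against 9.33% over all windows. With 1 array alone, 4 to 9 of 29 were higher (13.8% to 31.0%), against 9.17% to 9.90% over all windows. On either array alone 7 of 29 were lower (24.1%), against 13.0% to 13.4% over all windows. limma could not be fitted with 1 array, which leaves no residual degrees of freedom. The cause of these changes was not tested. No paired analysis was possible because the series has 1 group of revertants, with the wild type on the same array. Limits are the saturated spots, the missing probes, unswapped dyes and 2 arrays.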
